A study of Mus musculus with 6 samples.

Results

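Igf2 and the IGF binding proteins Igfbp2 to Igfbp7 were examined in single cells of the mouse brain. The 7 genes were taken by their symbol in the deposited list of transcripts, where every entry is 1 cDNA molecule tagged with a unique molecular identifier (UMI, a random tag of 6 bases). Of the 7 genes, 3 (Igf2, Igfbp2 and Igfbp4) had transcripts of their own, among 6357 genes in all. Igfbp3, Igfbp5 and Igfbp6 had no entry, and Igfbp7 had only 1 entry, which was also assigned to the overlapping gene Polr2b.

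The cDNA came from 6 cells of the CD-1 strain and was read end to end on the PacBio instrument after STRT/C1 synthesis, with the tissue given as brain. The labels give the developmental stage as Embryo for all 6 cells, mature myelinating oligodendrocytes included, and whether this stage is right was not resolved. The groups were 2 vascular and leptomeningeal cells (VLMC-1 and VLMC-2, fibroblast-like cells of the meninges and vessel walls), 2 immature oligodendrocytes (Oligo1-1 and Oligo1-2) and 2 mature myelinating oligodendrocytes (Oligo5-1 and Oligo5-2). None carried a genetic change or a treatment in the labels, no animal was named, and a cell type was therefore taken as 1 sample with no test between cell types. The labels name both VLMCs oligodendrocyte progenitor cells, and the name VLMC was given here by elimination, from the cell types that the study describes.

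The cells held between 2338 (VLMC-1) and 11483 (Oligo1-1) transcripts, with 7027 in the VLMCs and 29632 in the oligodendrocytes. Of 10 VLMC markers, 7 were seen in VLMC-1 and 9 in VLMC-2 (84 and 176 transcripts, 3.59% and 3.75% of the cell), and none in an oligodendrocyte. The 10 oligodendrocyte markers made up 9.55% to 14.9% of each oligodendrocyte and had no transcript in a VLMC. Of 10 progenitor markers, Pdgfra is also a VLMC marker and is counted in both lists. The VLMCs held it alone, with 5 and 3 transcripts, while Olig1, Olig2 and Sox10 were at 0 there. Of 10 mural markers they held Vtn alone (11 and 35 transcripts), with Rgs5 and Acta2 at 0, and of 5 astrocyte markers they held Slc1a3 (1 and 21) and Gja1 (4 and 0), with Gfap and Aqp4 at 0. Endothelial and microglial markers had no transcript in the VLMCs. Intervals and limits from a count of 0 (3 counts) cover counting error only. They take each UMI as a separate molecule, so intervals are too narrow where several similar UMIs come from 1 molecule.

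Insulin-like growth factor 2 is a secreted peptide that signals through the receptor Igf1r and is cleared by Igf2r. Its gene is imprinted and, in most tissues, expressed mainly from the paternal copy. The meninges and choroid plexus are known sites of its expression in the brain, and the copy used there was not examined here. The gene has several promoters with largely noncoding first exons that are spliced to shared coding exons. The IGF binding proteins are secreted carriers that hold IGFs in the extracellular fluid and limit or prolong their access to the receptor.

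The Igf2 gene lies on the minus strand of chromosome 7 (mm10, GENCODE M21, 142650766 to 142666816), Igfbp2 on the plus strand of chromosome 1 (72824503 to 72852474) and Igfbp4 on the plus strand of chromosome 11 (99041244 to 99054392). Their transcripts lay at the 3′ end of these genes, so the sequences shown are those at the ends of the reads, all from the GENCODE M21 transcripts on GRCm38, 5′ to 3′ on the strand of the gene. The first is the position in the 3′ UTR of Igf2 where most Igf2 reads began, at chr7:142651608-142651637. Its capitals mark bases 9 to 4 before the commonest first aligned base. The other 3 are the 30 bases up to the commonest last base of each gene, at chr7:142650770-142650799, chr1:72852440-72852469 and chr11:99052624-99052653, with the polyadenylation signal AATAAA or ATTAAA in capitals where a search of these letters on the strand of the gene found it.
Igf2, commonest 5′ end: tcctggGGGCAAggtggggtgaggcccgga
Igf2, commonest 3′ end: ctcgcaaacctAATAAAgcatttaaaatac
Igfbp2, commonest 3′ end: cttttacttaagATTAAAggaaggaaaaat
Igfbp4, commonest 3′ end: aaaaatcagaacaaaaccaaaaagtgtcca

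Igf2, the ligand, was abundant in both VLMCs and was not seen in any oligodendrocyte. VLMC-1 held 19 Igf2 transcripts, or 81.3 per 10000 transcripts of the cell (exact Poisson 95% interval, 48.9 to 127). VLMC-2 held 62, or 132 per 10000 (101 to 170), and the intervals of the pair overlap. Igf2 was the seventh gene by number of transcripts in VLMC-1 (rank 7 of 950 genes) and the third in VLMC-2 (rank 3 of 1630). All 4 oligodendrocytes held 0, and 0 of 29632 allows up to 1.01 per 10000.

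Every UMI was counted as 1 transcript and the 0 was set to 3 counts over the group. The share of Igf2 was then 114-fold higher in the VLMCs than in the oligodendrocytes. Here and below, such a ratio takes the count of the other group as exact, so it is no lower limit. With similar UMIs of a cell merged (1 substitution or a shift of 1 base), the share was 51.2-fold higher. This came from 35 Igf2 transcripts among 5166 in the VLMCs and 0 among 22665 in the oligodendrocytes. Among genes with no oligodendrocyte transcript and with every UMI counted, Spp1 alone had more VLMC transcripts (102) than Igf2 (81), and Dcn had 80. This order and the ranks above were not computed with similar UMIs merged, so the place of Igf2 holds for the unmerged counts only. The 81 Igf2 transcripts came from 336 reads, 77 in VLMC-1 and 259 in VLMC-2. Of them 42 had a single read, while the UMI GGCAAG in VLMC-2 had 62 reads, 18.5% of the Igf2 reads.

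Of the binding proteins, Igfbp2 and Igfbp4 were seen, again in VLMCs alone, with 7 and 6 transcripts. Igfbp2, a carrier of both IGFs that is secreted by leptomeningeal and choroid plexus cells, had 2 transcripts in VLMC-1 (8.55 per 10000, 1.04 to 30.9) and 5 in VLMC-2 (10.7, 3.46 to 24.9). Igfbp4, an inhibitory carrier that the protease Pappa cleaves, had 1 in VLMC-1 (4.28, 0.108 to 23.8) and 5 in VLMC-2 (10.7, 3.46 to 24.9). Both had 0 in all 4 oligodendrocytes. With the 0 set to 3 counts, the share in VLMCs was 9.84-fold higher for Igfbp2 and 8.43-fold higher for Igfbp4. The levels of the 2 genes did not differ beyond their intervals in either cell.

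**Figure D1:**
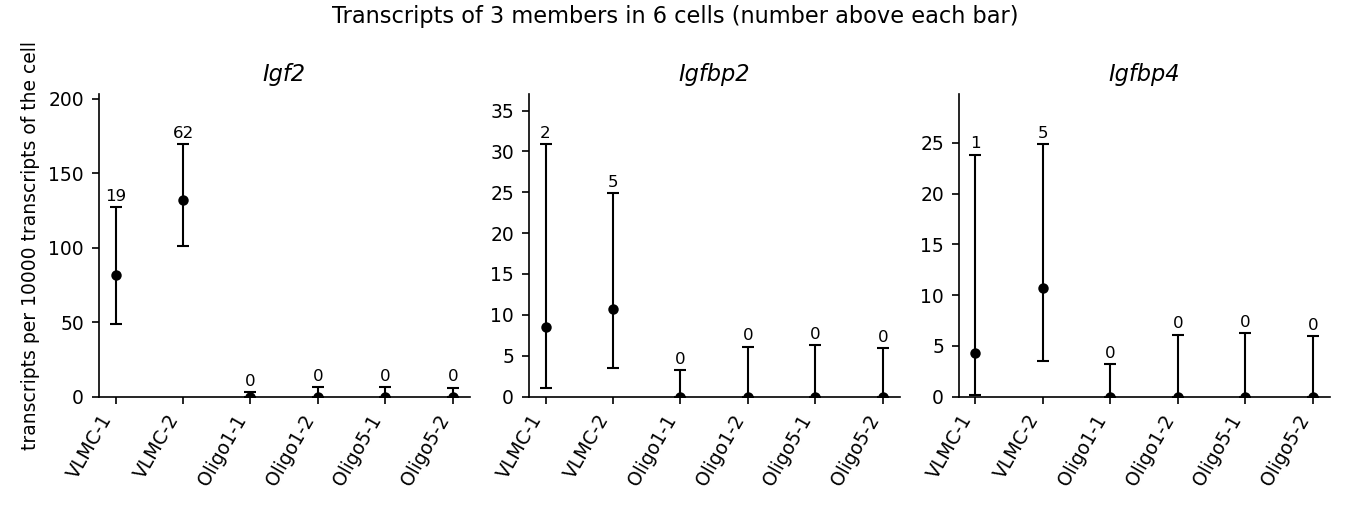
Transcripts per 10000 transcripts of the cell (vertical axis, a separate scale for each gene) of Igf2, Igfbp2 and Igfbp4 in the 6 cells. Points are the values, bars are exact Poisson 95% intervals for counting error, and the numbers are transcripts. Igf2 reached 81.3 and 132 in the VLMCs, and every oligodendrocyte was at 0 for the 3 genes.

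Of 1713 genes with at least 5 transcripts in the 6 cells, 281 (16.4%) lay past a 4-fold limit as higher in VLMCs and 55 (3.21%) as lower. The 3 genes were among the 281, but they met the minimum through VLMC transcripts alone, and a gene with 5 VLMC transcripts and no other is at 7.03-fold with the 0 set to 3 counts, so that nothing is read from this count. A gene at 0 in the VLMCs needs at least 51 oligodendrocyte transcripts to lie past the limit as lower, so the shares in the 2 directions cannot be set against each other. The 3 genes also had transcripts in both VLMCs and none in the oligodendrocytes, as had 70 genes (4.09%) of those tested. Without VLMC-2 only Igf2 of the 3 was still called, since Igfbp2 and Igfbp4 then had fewer than 5 transcripts.

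The 3 genes together had 94 transcripts in the VLMCs, which is 134 per 10000 (108 to 164). The value depended on the sequencing run. It was 197 per 10000 among VLMC transcripts read in the short run alone and 44.9 among those of the long run alone, for which long molecules had been enriched, and 0 in oligodendrocytes in both runs. Of the 81 Igf2 transcripts, 55 were read in the short run alone, 8 in the long run alone and 18 in both, and all 6 Igfbp4 transcripts came from the short run alone.

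The other carriers were below detection in the VLMCs. A count of 0 of 7027 allows up to 4.27 per 10000 for Igfbp3, the main carrier in serum, Igfbp5, which binds extracellular matrix, Igfbp6, which prefers IGF2, and Igfbp7, a secreted vascular protein with low affinity for IGFs. The entry shared by Igfbp7 and Polr2b lay in Oligo5-1, with 3 reads in 2 blocks of 257 and 112 bp (77349243 to 77349499 and 77351228 to 77351339 on chromosome 5). All 369 bases lay in exons of Igfbp7 and 82 of them also in an exon of Polr2b, and the gap of 1728 bp between the blocks was an annotated intron of Igfbp7, which is on the minus strand. Oligo5-1 was also the only cell with transcripts of endothelial markers, with 5 in all from Cldn5, Kdr, Ly6c1 and Emcn out of 10 markers. The part of such RNA in the entry was not tested.

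Next, the promoters of Igf2 were examined. The annotation holds 9 Igf2 transcripts with 9 first exons, of which 4 are linked to RefSeq. Only 2 of the 81 Igf2 transcripts (2.47%, exact binomial 95% interval, 0.30% to 8.64%) overlapped a first exon, both in VLMC-2 with 1 read each in the long run. None of the Igfbp2 and Igfbp4 transcripts did, so the share over the 3 genes was 2.13% (0.259% to 7.48%) of 94. Over all genes, by the same definition, 50% (47.9% to 52.1%) of transcripts in VLMC-1 and 59.3% (57.9% to 60.8%) in VLMC-2 overlapped one.

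The first of these 2 Igf2 transcripts began in a promoter exon. Its start lay at 142657479, inside the first exon of Igf2-201 (142657388 to 142657496, which Igf2-202 shares from 142657466), the most downstream of the 4 starts in RefSeq, and covered the 2 following exons (142655654 to 142655816 and 142654300 to 142654448) with all 3 gaps equal to annotated introns. It was the only Igf2 transcript with coding bases. The 546 aligned coding bases are those coding in any RefSeq-linked model, since Igf2-201 has 540 and Igf2-205 has 573. Its first 30 bases, at chr7:142657450-142657479, show the promoter exon as read.
Igf2, first bases of the promoter transcript: aaactggacattagcttctcctgtgagaac
No transcript began within 50 bp of the other 3 RefSeq starts. None of the 4 windows of 250 bases before the RefSeq starts (GRCm38.p6) holds the letters TATAAA on the strand of the gene, which 2494 of 32851 such windows (7.59%) hold.

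The second overlapped the first exon of the short model Igf2-208 (142652855 to 142653030), which has no coding sequence. It began at 142653139, upstream of that exon and inside the last exon of Igf2-201, and ran to the end of the gene across a gap of 1254 bp that is no annotated intron. With a single read each, neither transcript allows the use of the promoters to be compared.

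The remaining Igf2 transcripts began inside the last exon. In total 80 of 81 (98.8%, 93.3% to 99.97%) covered no coding base and lay in the 3′ UTR, whereas 71.0% of VLMC transcripts of coding genes covered at least 1 coding base. With ends within 5 bp chained, Igf2 had 20 start sites. A single site, from 142651617 to 142651635, held 53 of 81 transcripts (65.4%, 54.0% to 75.7%), 15 of 19 in VLMC-1 and 38 of 62 in VLMC-2, with 280 of the 336 reads. It lay 851 to 869 bp before the annotated end, and the other 19 sites had 1 to 3 transcripts each. All 53 ran to the end of the gene, with a median aligned length of 853 bp.

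The annotation has an exon boundary in this site. The last exons of Igf2-202 and Igf2-208 both begin at 142651624, and in Igf2-201 the position is inside the last exon (142650766 to 142654052). Of the 53 transcripts, 42 began at or inside that boundary and 11 began upstream of it. In 1 transcript of VLMC-2, which began at 142652213, the alignment jumped over 397 bp onto that boundary exactly, and the gap began with GC and ended with AG.

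**Figure D2:**
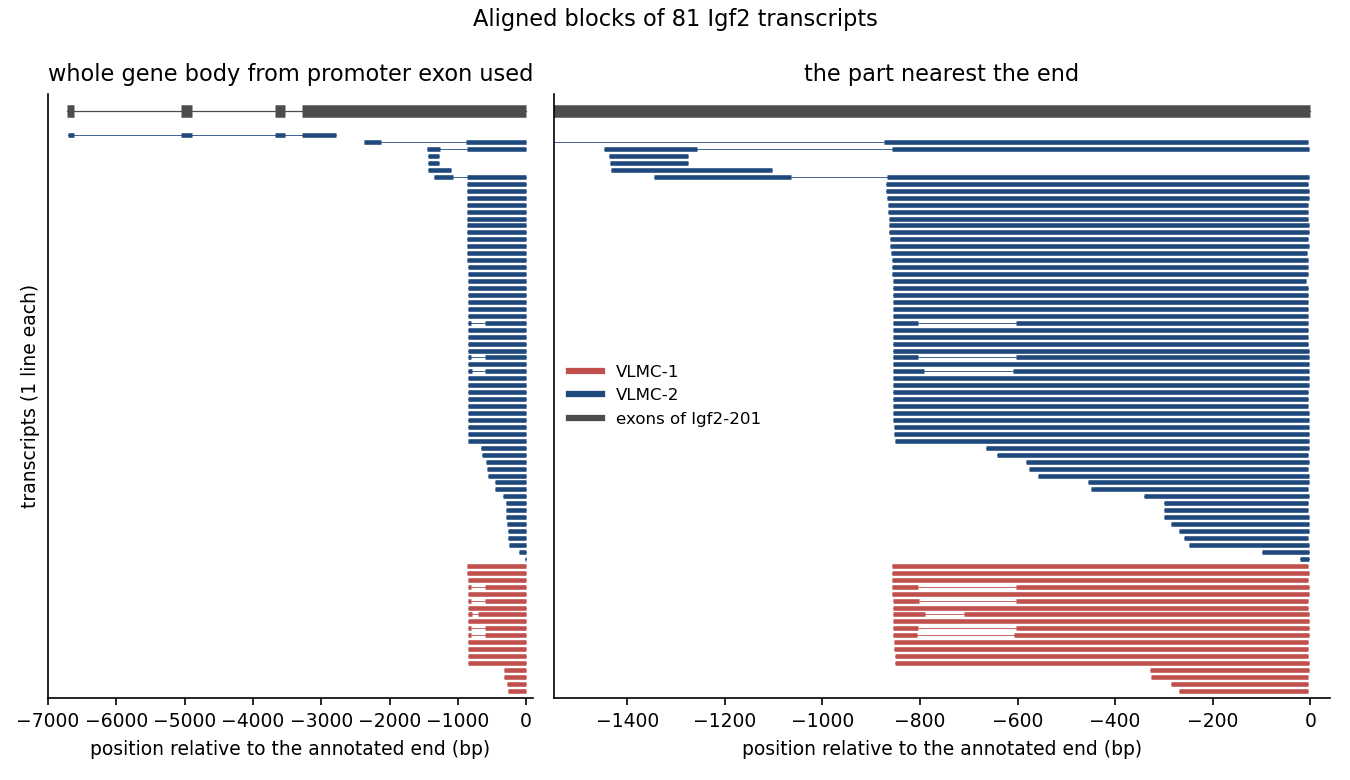
Aligned blocks (thick) and gaps (thin) of the 81 Igf2 transcripts, 1 line each, by position in bp relative to the annotated end of Igf2-201, whose exons are drawn in grey. The right panel enlarges the part nearest the end. Most lines begin 851 to 869 bp before the end in both VLMCs, and 1 line of VLMC-2 reaches the promoter exon.

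Gaps inside the 3′ UTR recurred in both cells. Of 81 Igf2 transcripts 12 (14.8%, 7.90% to 24.4%) had more than 1 block, 5 in VLMC-1 and 7 in VLMC-2. In 11 the gap was no annotated intron. In 7 of them, 4 in VLMC-1 and 3 in VLMC-2 with 58 reads, it spanned 182 to 199 bp with its downstream border near 142651371, within the part between the main start site and the end. The commonest form, from 142651371 to 142651569 (199 bp), was seen in 2 transcripts of each VLMC with 28 reads in all, and its borders share 5 bp, so that it can be placed at several positions. None of the 11 gaps could be placed with GT at its start and AG at its end. Whether these gaps are introns or arose in the synthesis of the cDNA was not tested.

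The 3′ ends of Igf2 fell into 4 sites, beside 20 sites for the 5′ ends. Of 81 Igf2 transcripts 77 (95.1%, 87.8% to 98.6%) ended between 142650768 and 142650774, all 19 of VLMC-1 and 58 of 62 in VLMC-2, and all 77 had AATAAA in their last 30 bases, as had 58.2% of 6254 VLMC transcripts over all genes. The other 4 ended at 3 sites upstream. A transcript with 2 reads ended at 142651870, 2 transcripts with 1 read each ended at 142652042, and the promoter transcript ended at 142653546. None of these 4 had AATAAA or ATTAAA in the last 30 bases. The 3 transcripts that ended at 142651870 or 142652042 all began between 142652200 and 142652203, with a run of T just upstream. The UMIs of the 2 at 142652042, AGAGAA and AGAGAG, differ by 1 base, so they may be 1 molecule. Whether these are ends of Igf2 transcripts was not tested. The 30 bases around each of these ends, with the 15 that follow the end in capitals, are shown since the last is followed by a run of genomic A (8 of the next 10 bases), while the others are not. They lie at chr7:142651855-142651884, chr7:142652027-142652056 and chr7:142653531-142653560.
Igf2, end at 142651870: gcgtggggcagtgtcCCCTCAGGTGTTAGG
Igf2, end at 142652042: ccttgatttttttttTTATCTCTCTCTATC
Igf2, end at 142653546: attatatattcacatTAAAAAAAACTTTAA

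The transcripts of Igfbp2 were fragments of its last exons. Of 7, 6 began in exon 4 and 1, in VLMC-1, began in exon 3 at 72849631 and crossed the annotated intron of 2293 bp. Of the 7, 4 covered coding bases (95 to 236 bp). All 7 ended within 20 bp of the annotated end at 72852474, and 5 of them at 72852468 or 72852469. Of the next 10 bases, 8 were A after the end at 72852462 and 6 were A after that at 72852454. After 72852468 and 72852469, 5 were A, and 4 or 5 lay past the annotated end and were unknown. The part of these A bases in the ends was not tested. ATTAAA was found in the last 30 bases of 6 of 7 and AATAAA in none, and 12.1% of 6254 VLMC transcripts over all genes had ATTAAA without AATAAA.

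All 6 Igfbp4 transcripts lay within the 3′ UTR of the last exon and had 1 block. They ended at 99052640 (1 transcript) or between 99052651 and 99052654 (5 transcripts). GENCODE places the end of this gene 1738 to 1752 bp further on, at 99054392, and RefSeq places it at 99052655, so that all 6 ended 1 to 15 bp before the RefSeq end. Neither AATAAA nor ATTAAA was found in the last 30 bases of any. The median aligned length was 343.5 bp for Igfbp4, 398 bp for Igfbp2 and 852 bp for Igf2.

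**Figure D3:**
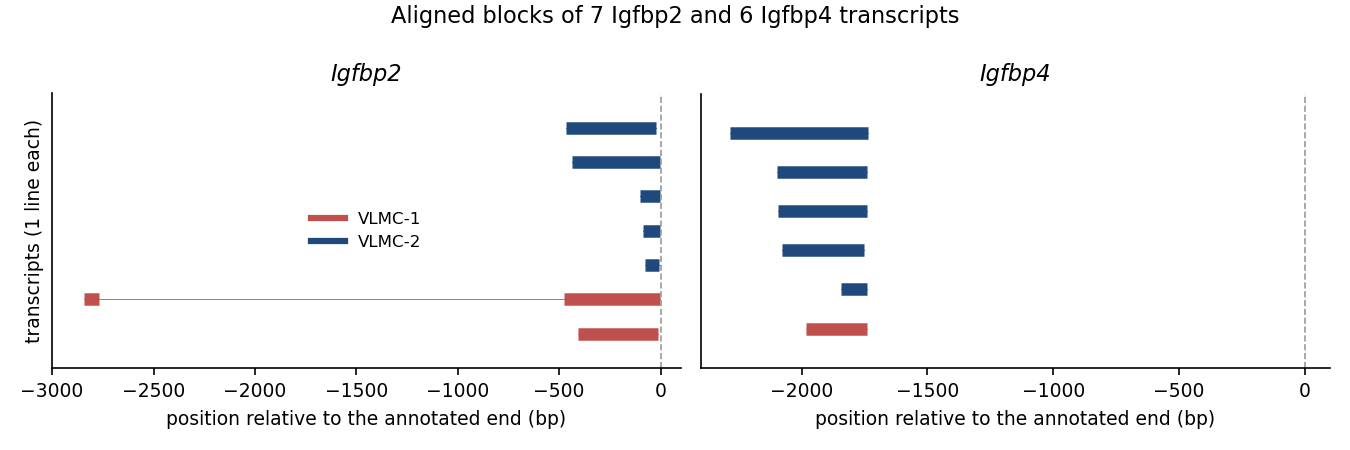
Aligned blocks (thick) and gaps (thin) of the 7 Igfbp2 and 6 Igfbp4 transcripts by position in bp relative to the end of the gene in GENCODE (dashed). Igfbp2 transcripts reach the end to within 20 bp, and Igfbp4 transcripts stop 1738 to 1752 bp before it.

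In a part of the Igf2 transcripts the UMI resembled the bases before the start position. In this chemistry the UMI sits in the template-switching oligo, just before 3 G bases that were trimmed from the reads, and an oligo whose own bases pair with the cDNA is known to be able to switch at an internal position, called strand invasion. The UMI of each transcript was therefore set beside bases 9 to 4 before its 5′ end. At 5 or 6 of 6 bases, 34 of 81 Igf2 UMIs were the same as these bases (42.0%, 31.1% to 53.5%), 9 of 19 in VLMC-1 and 25 of 62 in VLMC-2. In 20 all 6 bases were the same. The interval takes the 81 UMIs as separate molecules, but merging similar UMIs left 35 (below), so it may be too narrow. Over all other genes of the VLMCs the share was 18.2% (17.2% to 19.3% of 5712), and over the oligodendrocytes 8.44% (8.10% to 8.79% of 25494). Among 112 genes with at least 30 transcripts the median was 7.74%.

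**Figure D4:**
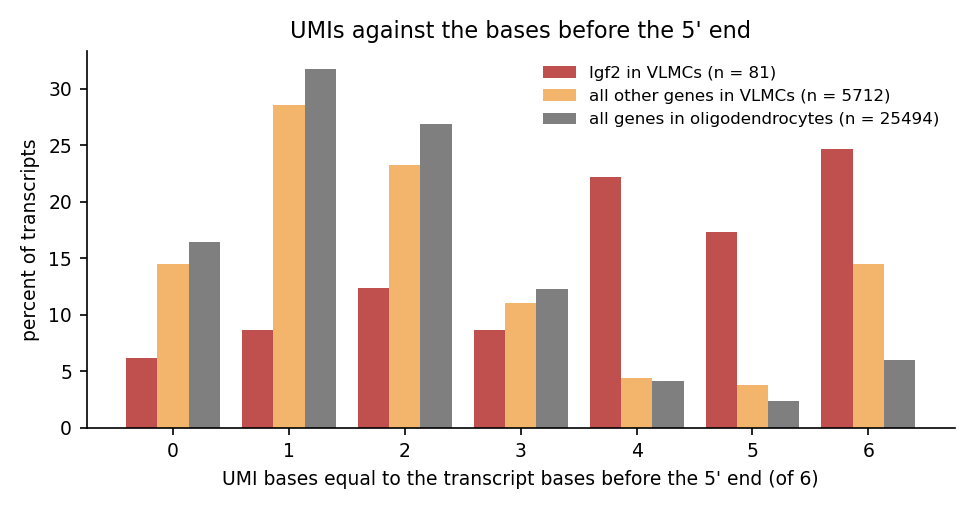
Percent of transcripts (vertical axis) by the number of UMI bases, of 6, that equal bases 9 to 4 before the 5′ end (horizontal axis). Of Igf2 transcripts 24.7% have all 6 bases equal, against 14.5% of the other VLMC transcripts and 6.02% of those in oligodendrocytes.

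The main start site of Igf2 held 25 of the 34 UMIs, and the other 28 transcripts held 9. At its commonest position, 142651622, 20 transcripts had 18 different UMIs, and 9 of them were the same at 5 or 6 bases as the bases in capitals in the first sequence above. The same tags recurred in both cells. Of the 19 Igf2 UMIs of VLMC-1, 10 were also Igf2 UMIs of VLMC-2 (52.6%), whereas over 376 other genes seen in both cells 58 of 1272 were (4.56%). These shares come from unlike depths, since Igf2 had 62 UMIs in VLMC-2 (rank 3) and most other genes had fewer that could recur. No gene of like count was set beside Igf2. When UMIs of a cell that differ by 1 substitution or a shift of 1 base were merged, the 81 Igf2 transcripts became 35, and all 7027 VLMC transcripts became 5166.

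In the binding proteins the counts were small. The share was 4 of 7 for Igfbp2 (57.1%, 18.4% to 90.1%), with 0 of 2 in VLMC-1 and 4 of 5 in VLMC-2, and 3 of 6 for Igfbp4 (50%, 11.8% to 88.2%), with 1 of 1 and 2 of 5. The interval of Igfbp4 includes the 18.2% of the other VLMC genes, and that of Igfbp2 begins just above it. The 3 Igfbp2 transcripts with all 6 bases the same began at 72852372, 72852390 and 72852398. Their 5′ ends are shown with the bases that equal the UMI in capitals, from chr1:72852363-72852392, chr1:72852381-72852410 and chr1:72852389-72852418.
Igfbp2, start at 72852372: GGAAGGgtggtatggagggcactgggtaca
Igfbp2, start at 72852390: GCACTGggtacaggcctgggaatggggaaa
Igfbp2, start at 72852398: TACAGGcctgggaatggggaaagaaatttt
Without such UMIs, 47 Igf2 transcripts remained (10 in VLMC-1 and 37 in VLMC-2), with 3 of Igfbp2 and 3 of Igfbp4, and the 3 genes together went from 134 to 89.1 per 10000 VLMC transcripts (53 of 5951). Among transcripts whose bases before the 5′ end are known, they went from 162 (94 of 5793) to 112 (53 of 4717). Their part in the number of transcripts and in the start sites was not tested.

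The IGF pathway was sparse otherwise. Of a list of 31 receptors, adaptors, proteases and regulators 7 had any transcript and 2 could be compared, 1 higher and 1 lower in VLMCs. Igf1r, the receptor, was higher, with 4 and 1 transcripts in the VLMCs and 3 in Oligo5-1, a ratio of 7.03 (exact interval, 1.37 to 45.3, counting error only). Without VLMC-1, which held 4 of the 5, the ratio was 2.11 and Igf1r had 4 transcripts in all, too few to be called. Grb14, an adaptor that inhibits the insulin receptor, was lower, with 0 in the VLMCs and 45, 4, 4 and 4 in Oligo1-1, Oligo1-2, Oligo5-1 and Oligo5-2. With the 0 set to 3 counts the difference was 4.51-fold. The call rests on single cells, since Oligo1-1 held 45 of the 57 transcripts. On the same basis, the difference was 1.55-fold without Oligo1-1, 3.01-fold without VLMC-1 and 1.5-fold without VLMC-2, none of them past the limit. Irs1, a docking protein of the receptor, had 3 transcripts in VLMC-2, and Pik3r1, a subunit of PI3-kinase, had 3 in Oligo5-1. Igf1, Igf2r, Insr, Pappa and H19, which neighbours Igf2 and is imprinted with it, were at 0 in all cells.

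Of 15 imprinted growth genes 6 had transcripts, and 3 reached the minimum of 5. Gnas, the stimulatory G protein subunit, had 0 and 6 transcripts in the VLMCs and 3, 8, 10 and 1 in the oligodendrocytes (ratio 1.15, 0.381 to 2.92), not past the 4-fold limit. Ndn had 5, in 3 of the oligodendrocytes. Meg3, a noncoding RNA, had 5, all in Oligo5-2, the only cell with neuronal markers (29 transcripts of 3 of 5 markers). Ndn and Meg3 were at 0 in the VLMCs and could not have been called lower at this depth. Medians of the ratio are left out, since the 3 counts set in place of a 0 can put a gene that is at 0 in the VLMCs above 1.

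The genes whose levels followed Igf2 most closely over the 6 cells were Gstm2, Vtn and Fosb, by Pearson's r of log2(transcripts per 10000 + 1) among 668 genes with at least 10 transcripts (r = 1.00 for each). The same 3 led for Igfbp2. All are at 0 in the 4 oligodendrocytes, so the correlation describes a pair of cells set against 4 at 0. Gstm2, a glutathione transferase, had 3 and 8 transcripts in VLMC-1 and VLMC-2, Vtn, which encodes vitronectin, 11 and 35, and Fosb, an immediate early transcription factor, 5 and 13.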

How the data were processed

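The authors deposited 1 table for the 6 cells, with a row for each transcript. The deposited values are raw counts of reads, which the authors had merged per UMI, with block positions on mm10. The authors had split concatemers, kept reads flanked by the barcode with a run of A, trimmed adapters and GGG, and aligned with GMAP (the submitters' processing notes name GSNAP). Other deposited columns were the gene and UMI of each transcript. The 6 cells had 6 barcodes, none shared. The 356 entries naming several genes were left out of the counts per gene but kept in the totals of the cells.

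Transcripts were counted per gene and cell and divided by all transcripts of the cell. Genes with 5 or more transcripts were called past 4-fold, with 3 counts in place of 0. Ends within 5 bp were chained. Blocks were compared with GENCODE M21, and promoter windows and gene ends came from RefSeq GRCm38.p6. In the annotation 7 of 7 members matched by symbol, while 3 had transcripts of their own among those deposited. The genes, the lists and the rules for naming genes (the members, listed genes with 3 or more transcripts, and the 3 genes most like Igf2 and Igfbp2) were chosen with earlier results of these data known. The steps were tested on simulated data. For the calls these had greater depth and planted differences larger than 4-fold, so they do not cover genes near 5 transcripts. Python 3.11.15, pandas 2.3.3, numpy 2.4.6, scipy 1.17.1 and matplotlib 3.10.9 were used.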

Additional observations from a re-analysis of the deposited data

How the results depend on the processing

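The level of the 3 genes in VLMCs, 134 per 10000, was 92.9 with similar UMIs merged, 89.1 without UMIs that equal the bases before the 5′ end, 197 in the short run alone and 44.9 in the long run alone, and between 94.1 (VLMC-1 alone) and 154 (VLMC-2 alone). Igf2 itself went from 115 to 67.8 with similar UMIs merged, an alternative chosen after seeing the data, as were the first exons of RefSeq-linked transcripts and the level without the UMIs that equal those bases. In oligodendrocytes the level was 0 under each alternative but one, which counted the entry shared by Igfbp7 and Polr2b (0.337), and it stayed at 0 when each cell was left out. The share of genes called higher in VLMCs (16.4%) was 18.8% and 12.7% with minimums of 2 and 10 transcripts, 25.6% and 9.87% with 2-fold and 8-fold limits, and between 12.1% and 20.4% when a cell was left out. Of the 3 genes, 1 to 3 were called when a cell was left out, with 1 without VLMC-2. Igf2 had 41 start sites with every position distinct and 13 within 20 bp, and 9 end sites with every position distinct. The end sites of Igfbp2 and Igfbp4, 5 in all, became 9 and 2. The share overlapping a first exon was 0% in the short run alone and 25.0% of 8 transcripts in the long run alone. The other alternatives left the values within their intervals. The causes were not tested. No paired analysis was possible because no test was made between the groups and a shared number of 2 cells names no common animal. Depth limits what is said of Igfbp2 and Igfbp4, with at most 5 transcripts in a cell.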
